A study of Mus musculus with 6 samples.

Results

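The Nduf genes carry the nuclear-encoded subunits of respiratory complex I and a set of its assembly factors. They were taken as every gene whose only platform symbol starts with Nduf, and 44 such genes stood among the 18193 genes with a probe set of 1 symbol on the array. By role they were 6 core subunits, 28 accessory subunits, 8 assembly factors, and Ndufa4 with its paralog Ndufa4l2. Of the 44 genes, 42 passed the brightness filter and were tested, among 10685 genes tested in all. The 2 genes not tested were Ndufa4l2, whose mean signal was 7.17 in pyruvate cells and 7.83 in untreated cells, and Ndufb4, whose own probe set averaged 14.6 in pyruvate cells and 20.1 in untreated cells.

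C2C12, a line of mouse muscle precursor cells, was grown for 72 h in 100 mm dishes under 2 conditions. The pyruvate cells had DMEM made without sodium pyruvate, to which 50 mM of it was added, and the untreated cells had basal DMEM, whose pyruvate content the labels do not give. Both media held 10% fetal bovine serum, 4 mM glutamine and 1% antibiotics, and the cells are labelled as undifferentiated. There were 3 arrays of each condition, and the question in the study's title is mitochondrial biogenesis under pyruvate that does not need PGC-1alpha. The labels do not say that the samples came from separate cultures, so p-values measure the spread between these arrays, which may be technical.

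Complex I (NADH:ubiquinone oxidoreductase) takes electrons from NADH, passes them through flavin and iron-sulfur centres to ubiquinone, and couples that transfer to proton pumping across the inner mitochondrial membrane. Its matrix arm holds the NADH and ubiquinone sites, and its membrane arm holds the proton pumps, which are encoded in mitochondrial DNA. The nuclear-encoded core subunits carry the redox chemistry and are shared with bacteria. The accessory subunits surround the core, and the assembly factors act while the complex is built but are not part of the finished enzyme.

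Of the 42 Nduf genes tested, 15 were higher with pyruvate, 1 was lower and 26 were not called (limma, Benjamini-Hochberg adjusted p under 0.05 over all 22519 probe sets tested). The 15 were 35.7% of the Nduf genes, against 20.7% of all genes tested that were called higher. The 1 gene was 2.38%, against 14.5% of all genes called lower. The changes were small: the median was 0.14 on the log2(signal + 16) scale, a fold of 1.10, and they ran from -0.43 to 0.54, with 35 above 0 and 7 below. The median over all genes tested was 0.03. In 22 of the 42 genes (52.4%) the 3 pyruvate signals and the 3 untreated signals did not overlap, against 48.6% of all genes. In 21 of these the pyruvate arrays were all above, as in 28.6% of all genes, and in 1, Ndufb5, all below, as in 20% of all genes. Since bulk RNA was measured on arrays scaled to a common mean, a change in RNA per cell and a change in the mix of cells cannot be told apart.

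The brightest genes on the arrays were shifted upward with pyruvate. Each member was therefore set beside the 298 to 2460 other tested genes whose mean signal lay within 0.5 log2 units of its own. On average, 31.7% of those genes were called higher and 16.9% lower, and the median of the members' comparison medians was 0.04. Thus the share of Nduf genes called higher, 35.7%, lay close to that of genes of like brightness, and the share called lower, 2.38%, lay below it. The change exceeded the median of like-bright genes in 31 members and fell short of it in 11, with a median difference of 0.08. This comparison is a description, and no test was made of it.

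**Figure D1:**
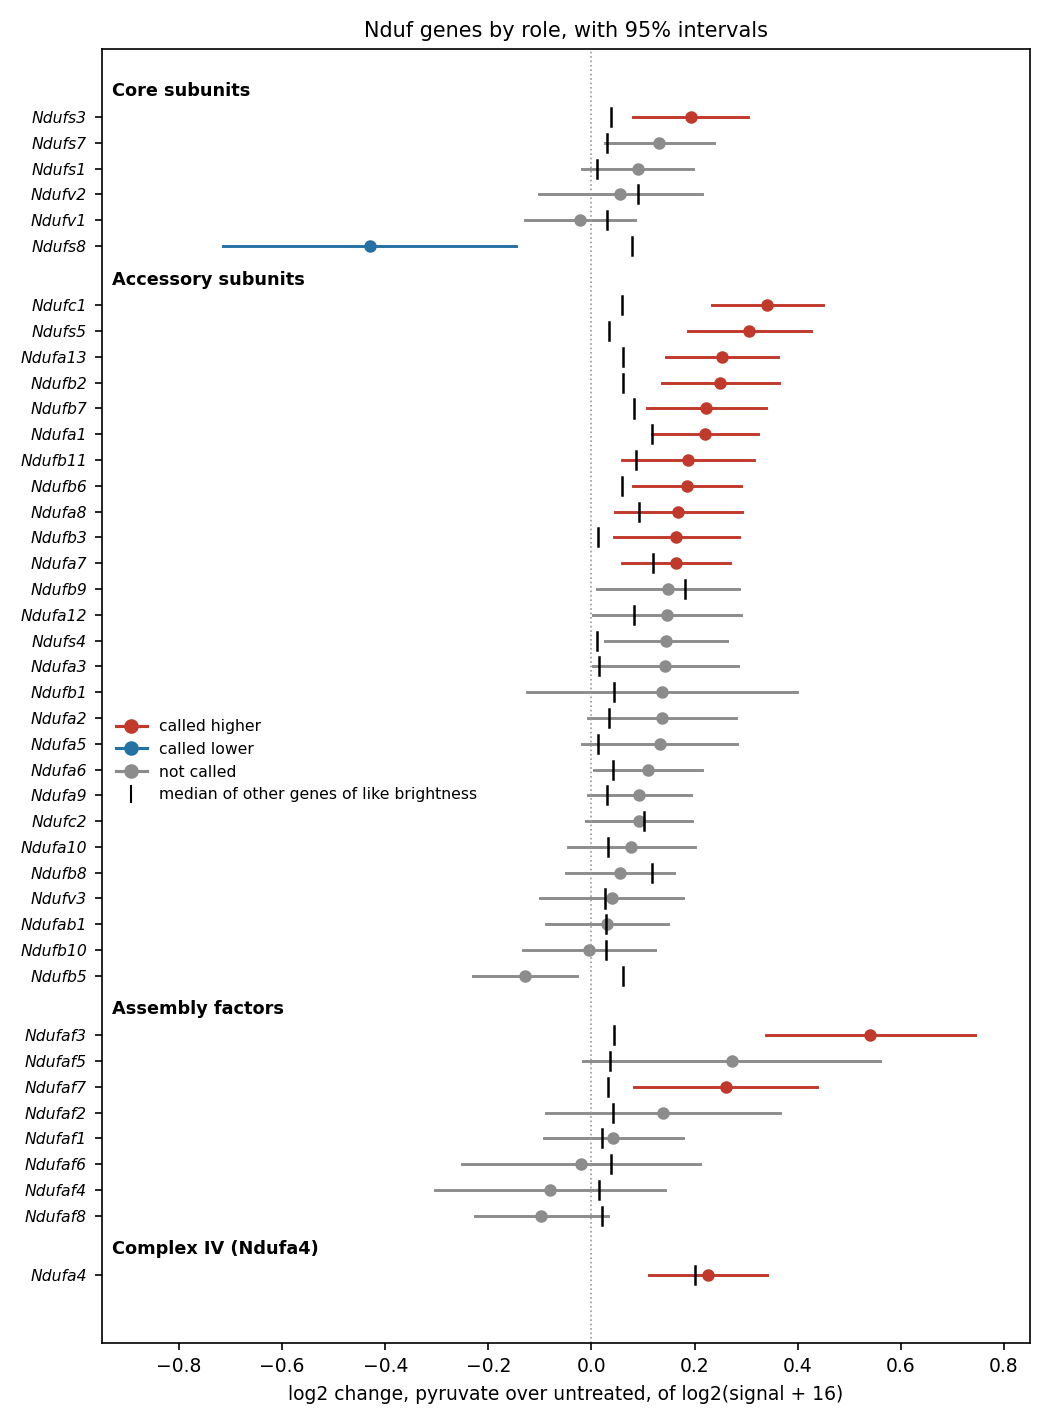
Log2 change of pyruvate over untreated (x axis, on the log2(signal + 16) scale) for the 42 Nduf genes tested, grouped by role, with 95% intervals from limma and the median of other genes of like brightness as black ticks. Of the 27 accessory subunits 11 are called higher and 0 lower, while the core subunits hold both a gene called higher (Ndufs3) and the gene called lower (Ndufs8).

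The arrays themselves were close within groups. Correlations of log2 signals were 0.9895 to 0.9933 within a condition and 0.974 to 0.977 between conditions, and array medians were 30.3 to 33.0. Myoblast markers were present in both conditions: of 7 tested, Myod1, Vim and Ncam1 were higher and Myf5, Cdh15 and Itga7 lower with pyruvate. Summed signals of all 8 listed were 15762.9 to 17434.2 in pyruvate cells and 14132.5 to 15157.3 in untreated cells. Vim was the largest part of these sums, with means of 9016.4 in pyruvate cells and 6362.6 in untreated cells. Its change of 0.50 was near the 0.49 of like-bright genes, and was -0.03 after quantile normalization (limma adjusted p = 0.446). Pax7 was below the filter. Of 9 genes of differentiating muscle, 8 were lower with pyruvate, with a median change of -2.53 and summed signals of 703.1 to 896.4, against 5645.4 to 6113.9 in untreated cells. The labels call both groups undifferentiated. The part of this difference in the changes of the Nduf genes was not tested. Summed markers of other cells were low, here with pyruvate cells against untreated cells: 113.4 to 167.0 against 115.3 to 147.5 for macrophages, 32.6 to 44.7 against 50.3 to 63.4 for endothelium, 17.9 to 35.3 against 22.0 to 34.2 for fat cells, and 86.8 to 126.4 against 152.7 to 164.6 for epithelium.

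Among the 6 core subunits, 1 was higher with pyruvate, 1 was lower and 4 were not called. The share was 16.7% in each direction, against 20.7% of all genes called higher and 14.5% called lower. Over genes of like brightness these shares averaged 32.4% and 19.4%. Their median change was 0.07, the median difference from genes of like brightness was 0.02, and 3 of the 6 lay above their like-bright median. The promoter windows of the 2 core genes called in opposite directions are shown first. They are 300 bases around the annotated start from RefSeq (GRCm38.p6), with matches to the ETS motif in capitals. Ndufs3 lies at chr2:90904672-90904971 and Ndufs8 at chr19:3912725-3913024, both on the minus strand.
Ndufs3: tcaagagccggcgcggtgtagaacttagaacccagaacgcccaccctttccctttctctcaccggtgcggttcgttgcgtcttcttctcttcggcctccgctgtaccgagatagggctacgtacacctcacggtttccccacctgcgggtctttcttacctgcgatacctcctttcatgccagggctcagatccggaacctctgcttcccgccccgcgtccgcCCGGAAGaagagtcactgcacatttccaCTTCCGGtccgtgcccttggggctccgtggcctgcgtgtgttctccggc
Ndufs8: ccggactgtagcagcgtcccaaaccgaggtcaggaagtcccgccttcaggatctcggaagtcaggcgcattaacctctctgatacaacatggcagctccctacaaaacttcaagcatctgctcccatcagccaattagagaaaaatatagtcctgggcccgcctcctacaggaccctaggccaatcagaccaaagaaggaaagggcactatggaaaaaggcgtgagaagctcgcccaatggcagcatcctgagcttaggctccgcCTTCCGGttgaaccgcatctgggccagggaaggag
The ETS motif was searched as CCGGAAG on both strands, and it stood in the windows of 6 of the 39 Nduf genes with a window and of 9.93% of 27025 genes. Both windows printed hold it, that of Ndufs3 in 2 places.

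Ndufs3, a core subunit of the ubiquinone-binding module, had signals of 1398.8, 1505.0 and 1509.7 in pyruvate cells, against 1254.6, 1268.6 and 1332.1 in untreated cells. All 3 pyruvate arrays were above all 3 untreated arrays. It rose by 0.19 ± 0.05 (SE, n = 3 each) on the log2 scale, a fold of 1.14 (limma adjusted p = 0.0132). The call was lost without pyruvate replicate 3, untreated replicate 1 or untreated replicate 2, with adjusted p-values of up to 0.0643.

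Ndufs8, which holds iron-sulfur clusters near the ubiquinone site, went the other way on its brightest probe set. Its signals were 1406.8, 1911.0 and 1486.2 in pyruvate cells, against 2541.8, 1756.8 and 2204.3 in untreated cells. The groups overlap, since pyruvate array 2 is above untreated array 2. The log2 change was -0.43 ± 0.13 (SE), a fold of 0.742 (limma adjusted p = 0.0253). Leaving out pyruvate replicate 1, pyruvate replicate 3, untreated replicate 1 or untreated replicate 3 ended the call, with adjusted p-values of up to 0.0966 and changes between -0.57 and -0.31 over all 6 leave-outs. The call also ended with the mean over its probe sets (-0.11, adjusted p = 0.223), with no filter, with robust variances and without the variance trend (adjusted p of 0.0880 to 0.107). The other probe sets of Ndufs8, described further on, did not all move in that direction.

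Ndufs7, which carries the last iron-sulfur cluster before ubiquinone, fell just short of the threshold. Its signals were 1374.1, 1341.5 and 1331.2 in pyruvate cells, against 1190.0, 1219.2 and 1281.4 in untreated cells, with every pyruvate array above every untreated one. The log2 change was 0.13 (95% interval 0.03 to 0.24, limma adjusted p = 0.0552). Ndufs1, the large iron-sulfur subunit, gave 857.6, 833.6 and 832.6 in pyruvate cells and 779.0, 769.6 and 821.1 in untreated cells. These groups did not overlap either, but the change of 0.09 (-0.02 to 0.20) did not pass the test (limma adjusted p = 0.190).

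The NADH-oxidising pair showed no call. Ndufv1, which binds NADH and the flavin, read 1267.5, 1299.1 and 1248.0 in pyruvate cells and 1241.3, 1293.6 and 1342.5 in untreated cells, a change of -0.02 (-0.13 to 0.08). Ndufv2, its iron-sulfur partner, read 1712.7, 2077.4 and 2116.3 in pyruvate cells and 1894.2, 1876.7 and 1885.0 in untreated cells, a change of 0.06 (-0.10 to 0.21). Pyruvate array 1 was the lowest of the 6 for Ndufv2 and the other pyruvate arrays were the highest, so its groups overlapped.

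Of the 27 accessory subunits tested, 11 were higher with pyruvate (40.7%), 0 were lower and 16 were not called, and the median change was 0.14. The share called higher was 20.7% over all genes and averaged 34.1% over genes of like brightness, and the share called lower averaged 17.4% over those like-bright genes. In 22 of the 27 the change lay above the median of genes of like brightness, with a median difference of 0.09. By place, 5 of 8 were higher in the proximal membrane arm, 5 of 10 in the distal membrane arm and 1 of 8 in the matrix arm. The difference between the arms was not tested.

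Ndufc1 and Ndufs5 had the largest changes among the accessory subunits, so their RefSeq promoter windows are shown. Ndufc1 lies at chr3:51408906-51409205 and Ndufs5 at chr4:123718137-123718436 (GRCm38.p6, both on the minus strand). The capitals mark a YY1 motif in the first and an ERR motif, read on the opposite strand, in the second.
Ndufc1: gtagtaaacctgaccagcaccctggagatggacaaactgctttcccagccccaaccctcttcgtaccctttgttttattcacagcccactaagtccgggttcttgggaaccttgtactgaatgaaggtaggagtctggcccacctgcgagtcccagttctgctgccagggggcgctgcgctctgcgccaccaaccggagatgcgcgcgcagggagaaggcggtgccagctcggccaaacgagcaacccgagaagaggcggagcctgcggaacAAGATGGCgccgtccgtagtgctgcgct
Ndufs5: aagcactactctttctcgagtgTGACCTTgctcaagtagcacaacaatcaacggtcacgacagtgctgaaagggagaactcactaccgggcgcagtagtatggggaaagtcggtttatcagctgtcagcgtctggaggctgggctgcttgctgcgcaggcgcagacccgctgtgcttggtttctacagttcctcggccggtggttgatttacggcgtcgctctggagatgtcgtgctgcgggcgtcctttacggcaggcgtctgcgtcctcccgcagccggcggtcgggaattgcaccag
The YY1 motif was searched as AAGATGGC and the ERR motif as AAGGTCA, both on either strand. The YY1 motif was found in 7 of 39 Nduf genes and in 3.19% of all 27025 genes, and the ERR motif in 3 of 39 and in 5.38%. The NRF1 motif, GCATGCGC, was in 4 of 39 Nduf genes and 3.05% of all genes. In all, 19 of the 39 genes held at least 1 of the 4 motifs and 20 held none. Called higher were 1 of the 7 genes with the YY1 motif, 3 of the 6 with the ETS motif and 1 of the 4 with the NRF1 motif. Of the 3 with the ERR motif, 2 were called higher and the third, Ndufb4, was not tested. Among all Nduf genes with a window, 15 were called higher and 23 others were tested. Of all genes tested, 20.7% were called higher. These counts are small, and no relation between a motif and a call was tested.

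In the proximal membrane arm, 5 of 8 genes rose and the median change was 0.19. Ndufc1, a small single-span membrane subunit, had signals of 1846.4, 1969.6 and 1969.8 in pyruvate cells, against 1537.6, 1555.0 and 1464.0 in untreated cells. The groups were far apart relative to their spread, and the change was 0.34 ± 0.05, a fold of 1.27 (limma adjusted p = 0.000346). Its second probe set also rose, by 0.22.

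Ndufs5, a subunit on the intermembrane-space face of the membrane arm, had 1460.5, 1404.1 and 1506.9 in pyruvate cells, against 1100.2, 1203.5 and 1225.4 in untreated cells. It rose by 0.31 ± 0.05, a fold of 1.24 (limma adjusted p = 0.00139). Every pyruvate array exceeded every untreated array. The changes of Ndufc1 and Ndufs5 exceeded those of like-bright genes by 0.28 and 0.27.

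Ndufa13, also known as GRIM-19, sits where the arms meet. It had 1779.4, 1823.1 and 1927.6 in pyruvate cells, against 1496.1, 1561.6 and 1572.8 in untreated cells, and rose by 0.25 ± 0.05 (limma adjusted p = 0.00244). Ndufa1, another small subunit near that junction, had 2396.8, 2475.0 and 2559.0 in pyruvate cells, against 2129.3, 2162.2 and 2078.5 in untreated cells, and rose by 0.22 ± 0.05 (adjusted p = 0.00418). In both genes the groups were separate. Ndufa8, which faces the intermembrane space, had 1933.1, 2163.1 and 2202.6 in pyruvate cells, against 1827.5, 1861.1 and 1903.1 in untreated cells, and rose by 0.17 ± 0.06 (adjusted p = 0.0398). The Ndufa8 groups lay close at their nearest arrays, and its call was lost in each leave-out except that of pyruvate replicate 1, with adjusted p-values of up to 0.144.

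The remaining proximal subunits were not called. Ndufa10, which resembles nucleoside kinases, changed by 0.08 (-0.05 to 0.20), Ndufa3 by 0.14 (0.00 to 0.28) and Ndufc2 by 0.09 (-0.01 to 0.19). The 3 estimates were above 0 as deposited.

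In the distal membrane arm, 5 of 10 genes tested rose and the median change was 0.16. Ndufb2 had 1886.2, 1828.5 and 2029.4 in pyruvate cells, against 1649.7, 1576.6 and 1592.7 in untreated cells, a rise of 0.25 ± 0.05 (limma adjusted p = 0.00350). Ndufb7, another subunit of the intermembrane-space face, had 2051.4, 1953.4 and 2090.8 in pyruvate cells, against 1654.2, 1831.6 and 1734.0 in untreated cells, a rise of 0.22 ± 0.05 (adjusted p = 0.00759). In both, the lowest pyruvate array was above the highest untreated array.

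Ndufb11, an X-linked subunit in mouse and human, had 1857.3, 2083.4 and 2136.8 in pyruvate cells, against 1791.2, 1718.3 and 1811.7 in untreated cells, and rose by 0.19 ± 0.06 (limma adjusted p = 0.0288). Ndufb6 had 1716.2, 1746.8 and 1835.9 in pyruvate cells, against 1525.7, 1536.9 and 1589.6 in untreated cells, and rose by 0.19 ± 0.05 (adjusted p = 0.0115). Ndufb3 had 838.2, 863.7 and 882.1 in pyruvate cells, against 722.5, 814.5 and 765.3 in untreated cells, and rose by 0.16 ± 0.06 (adjusted p = 0.0404). Groups were separate in all 3, though for Ndufb11 and Ndufb3 the nearest arrays of the 2 groups lay close together. The Ndufb11 call was lost in each leave-out except that of pyruvate replicate 1 (adjusted p of up to 0.113). The Ndufb3 call was lost without pyruvate replicate 2 or 3 or untreated replicate 1 or 3 (up to 0.181), and the Ndufb6 call without untreated replicate 1 (0.0577).

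In this arm 2 genes had a change below 0, Ndufb5 and Ndufb10, and 4 fell short of their like-bright median. The signals of Ndufb5 were 1582.4, 1573.8 and 1652.5 in pyruvate cells, against 1707.6, 1774.7 and 1779.7 in untreated cells. Every pyruvate array was thus below every untreated one. The change of Ndufb5 was -0.13 (-0.23 to -0.03) and did not pass the test as deposited (limma adjusted p = 0.0535). It was called lower after quantile normalization (-0.17, adjusted p = 0.00719) and after cyclic loess normalization (-0.22, adjusted p = 0.00241). Ndufb1, Ndufb8, Ndufb9 and Ndufb10 were not called, with changes of 0.14, 0.06, 0.15 and -0.005.

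In the matrix arm, 1 of 8 accessory subunits rose, and their changes were alike, between 0.04 and 0.16. Ndufa7 had 2467.1, 2429.0 and 2560.6 in pyruvate cells, against 2199.1, 2153.1 and 2298.7 in untreated cells, and rose by 0.16 ± 0.05 (limma adjusted p = 0.0223). That call was lost without pyruvate replicate 3 or untreated replicate 1 or 2 (up to 0.0965). Ndufs4, which helps hold the NADH-oxidising module to the rest, had 795.5, 842.5 and 858.0 in pyruvate cells, against 728.1, 736.8 and 788.8 in untreated cells. All pyruvate values were above, but the change of 0.14 (0.03 to 0.26) missed the threshold (adjusted p = 0.0598). Its 2 other tested probe sets, both dim, went the other way without a call. One changed by -0.43 (limma adjusted p = 0.0503), with every pyruvate array below every untreated one, and the other by -0.12.

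Ndufa6, Ndufa9, Ndufa12, Ndufa2, Ndufa5 and Ndufv3 were not called. Their changes were 0.11, 0.09, 0.15, 0.14, 0.13 and 0.04. All 8 accessory genes of the matrix arm lay above the median of like-bright genes, by a median of 0.07, but the intervals of Ndufa2, Ndufa5, Ndufa9 and Ndufv3 included 0. Ndufab1, the mitochondrial acyl carrier protein, which is found in both arms and also serves fatty acid synthesis, changed by 0.03 (-0.09 to 0.15).

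**Figure D2:**
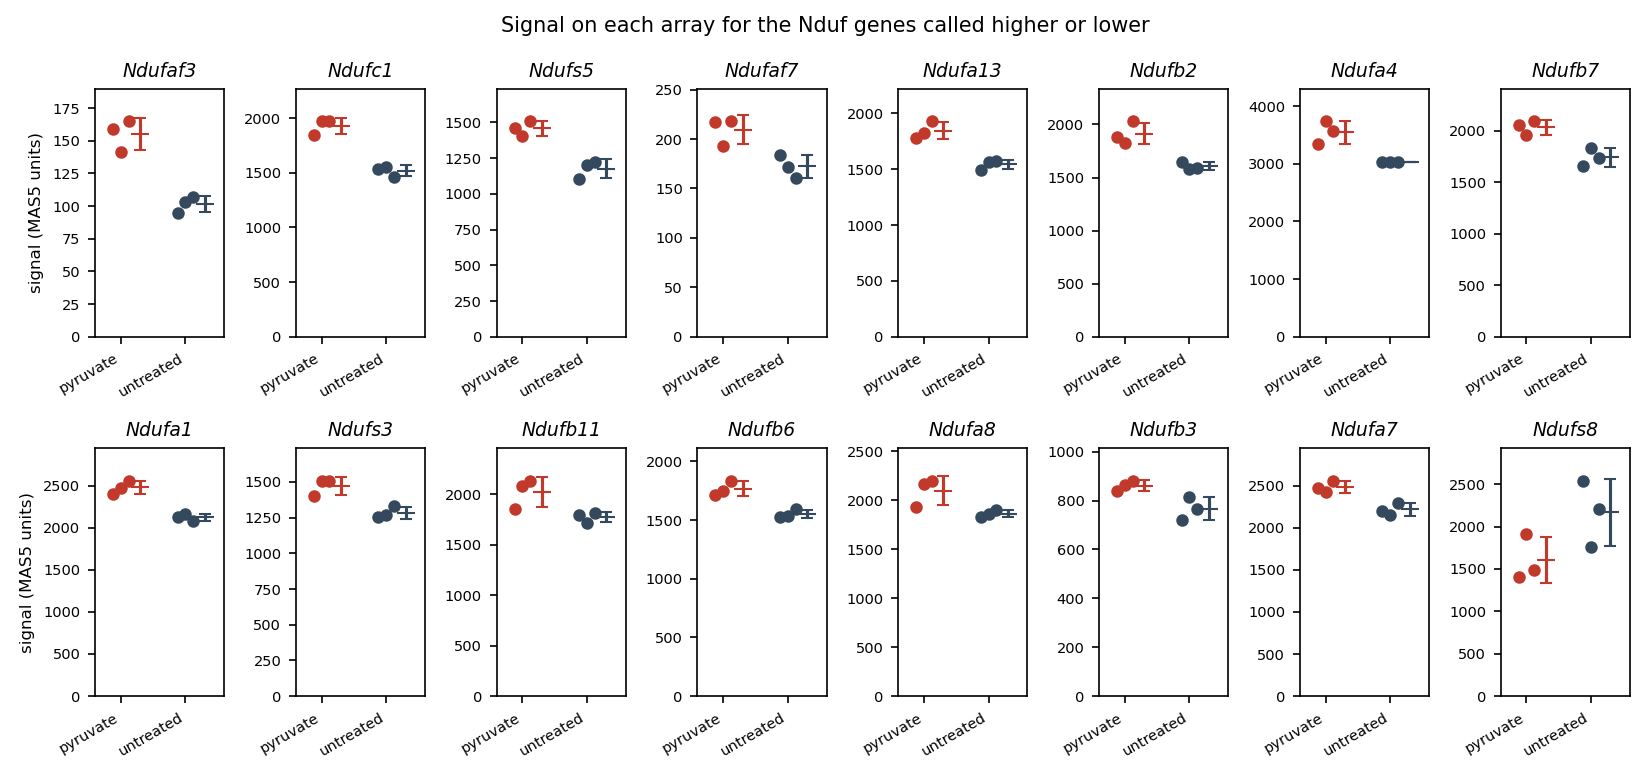
Signal on each array (y axis, MAS5 units, from 0) for the 16 Nduf genes called, with pyruvate on the left and untreated on the right of each panel; points are arrays and bars are the mean ± SD of 3. In the 15 genes called higher every pyruvate array lies above every untreated array, while the Ndufs8 groups overlap.

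Of the 8 assembly factors, 2 were higher with pyruvate (25%), 0 were lower and 6 were not called, with a median change of 0.09. That share lies near the 20.7% of all genes called higher and the average of 19.5% over genes of like brightness. These genes were dimmer than most subunits, and 5 of the 8 lay above the median of genes of like brightness, with a median difference of 0.06. Ndufaf3 had the largest change of all the Nduf genes, so its promoter window is shown (RefSeq GRCm38.p6, chr9:108567387-108567686, minus strand). None of the 4 motifs searched matches these letters, and the window therefore holds no capitals.
Ndufaf3: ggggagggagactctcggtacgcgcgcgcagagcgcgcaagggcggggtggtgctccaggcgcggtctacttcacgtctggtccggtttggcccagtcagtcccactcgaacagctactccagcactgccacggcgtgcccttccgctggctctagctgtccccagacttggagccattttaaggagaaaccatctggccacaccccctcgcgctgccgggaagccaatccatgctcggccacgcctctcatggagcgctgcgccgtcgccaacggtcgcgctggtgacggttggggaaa

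Ndufaf3, which acts early in the building of the ubiquinone-binding module, had signals of 158.8, 141.7 and 164.9 in pyruvate cells, against 94.6, 103.1 and 107.0 in untreated cells. The groups were well separated. The gene rose by 0.54 ± 0.09 (SE, n = 3 each), a fold of 1.45 (limma adjusted p = 0.00107), which was 0.50 above the median of genes of like brightness. Of those genes, 95.3% had a lower change. Its call held in all 6 leave-outs and in the 12 other settings tried.

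Ndufaf7, a mitochondrial methyltransferase, had 217.7, 193.2 and 217.9 in pyruvate cells, against 184.3, 172.0 and 160.8 in untreated cells. It rose by 0.26 ± 0.08 (limma adjusted p = 0.0298), with separate groups, and its call was lost without pyruvate replicate 1 or 3 or untreated replicate 2 or 3 (adjusted p of up to 0.106). Ndufaf5, which hydroxylates the core subunit NDUFS7 in human cells, had a change of the same size, 0.27, but its arrays were uneven. Its signals were 263.0, 190.0 and 164.8 in pyruvate cells and 157.9, 167.7 and 168.7 in untreated cells, and the test did not call it (adjusted p = 0.139).

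Ndufaf4, the partner of Ndufaf3 in early assembly, had 340.0, 478.9 and 388.2 in pyruvate cells and 452.3, 408.7 and 407.6 in untreated cells. Its groups overlapped and the change was -0.08 (-0.30 to 0.14). Ndufaf8, a partner of Ndufaf5 in human cells, changed by -0.10 (-0.23 to 0.03). Ndufaf1, which acts in assembly of the membrane arm, changed by 0.04, Ndufaf2, a paralog of Ndufa12, by 0.14 and Ndufaf6 by -0.02. None of these 5 was called.

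Ndufa4 was first described as a complex I subunit and is now counted with cytochrome c oxidase. It had 3339.5, 3736.2 and 3573.9 in pyruvate cells, against 3024.2, 3036.0 and 3030.2 in untreated cells, and rose by 0.23 ± 0.05, a fold of 1.17 (limma adjusted p = 0.00640). The median change of genes of like brightness was 0.20, so it differed from them by 0.02. After quantile normalization its change was 0.04 and the call was lost (adjusted p = 0.417).

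Changes were also compared by steps of brightness. Among genes other than Nduf genes, the median change was between 0.01 and 0.04 in each step of 1 log2 unit of mean signal from 5 to 11, 0.17 from 11 to 12 and 0.40 from 12 to 13. In the step from 10 to 11, which held 23 of the 42 Nduf genes, 9 of the 23 (39.1%) were higher and 1 (4.35%) lower, against 32.3% and 20.4% of 780 other genes. The median change there was 0.14 for Nduf genes, with an SD across genes of 0.16, and 0.04 for the others, with an SD of 0.29. The Nduf genes in this step thus lay closer together than the other genes. In the step from 11 to 12, 3 of 6 Nduf genes were higher with a median of 0.16, and 55% of 347 other genes were higher with a median of 0.17.

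**Figure D3:**
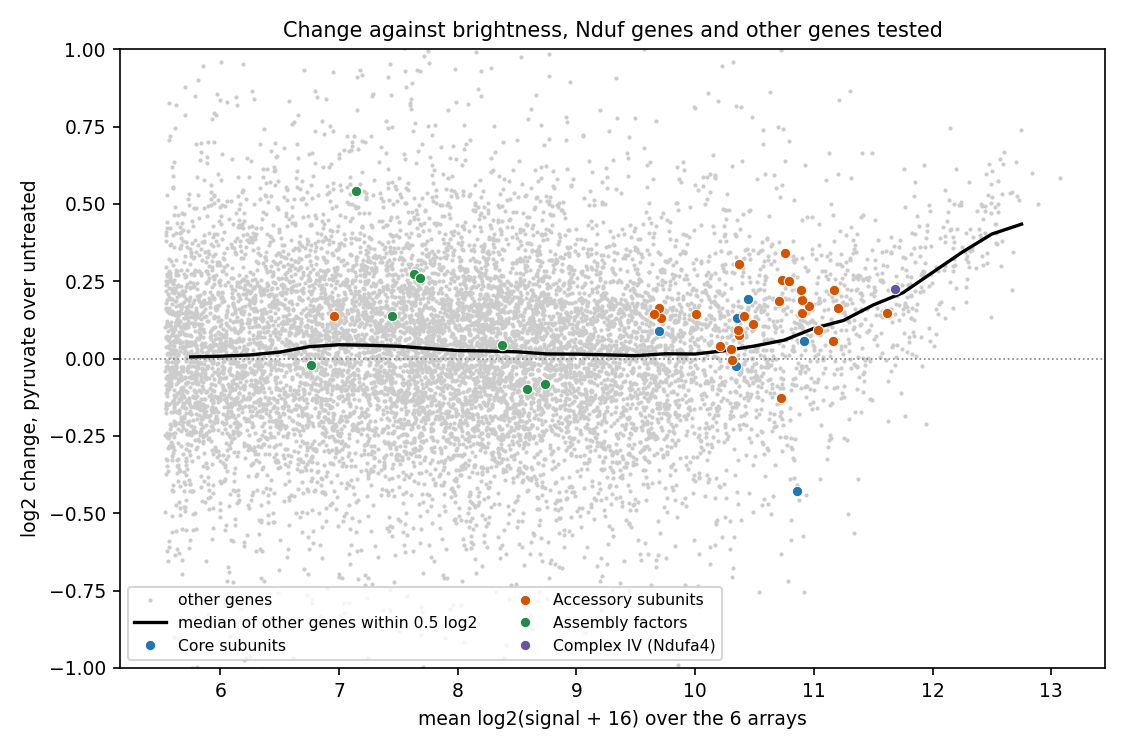
Log2 change of pyruvate over untreated (y axis) against the mean log2(signal + 16) over all 6 arrays (x axis) for Nduf genes by role and 10513 other genes, with 130 more beyond the axis limits of 1; the black line is the median of other genes within 0.5 log2 units. Core and accessory subunits gather at mean values near 10 to 11, and the assembly factors lie at lower mean values. Of the accessory subunits 22 of 27 exceed the median of like-bright genes, and of the core subunits 3 of 6.

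A gene was read above through its brightest probe set, and 22 of the Nduf genes had at least 2 tested probe sets. In 11 of these genes all tested probe sets had the same call. Among the 11, only Ndufb7 and Ndufc1 were called, higher on each probe set, and the rest agreed in not being called. In Ndufc2, Ndufs4 and Ndufv2 the uncalled probe sets differed in sign. Over the 78 tested probe sets of 1 Nduf symbol, 24 were called higher and 6 lower, against 16.3% and 15.9% of all 22519 probe sets, or 32.2% in either direction. Those shares are not matched for brightness. Among genes of like brightness to the members, 31.7% were called higher and 16.9% lower on average. The files do not say which part of a transcript a probe set reads.

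Ndufb6 and Ndufs8 each had a probe set called higher and another called lower. For Ndufb6, the second probe set had 1188.5, 1227.8 and 1270.0 in pyruvate cells, against 1424.3, 1356.6 and 1542.1 in untreated cells, a change of -0.23 (limma adjusted p = 0.00990), opposite to the rise of 0.19 on the brightest. Both probe sets of Ndufb6 separated the groups, in opposite directions. For Ndufs8, 1 of the 5 other probe sets was higher (0.17, adjusted p = 0.0226), 1 dim one was lower (-0.63, adjusted p = 0.00828, mean signals of 100.1 in pyruvate cells and 160.9 in untreated cells), and 3 were not called (0.13, 0.15 and -0.04). The direction of Ndufs8 and of Ndufb6 therefore depended on the probe set read.

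Other genes differed between a call and no call. Ndufb2 and Ndufb11 were higher on their brightest probe set, but their other tested probe sets were not called, at 0.10 and -0.009 for Ndufb2 and 0.11 and 0.12 for Ndufb11. When probe sets were averaged, the call of Ndufb2 was lost (0.11, limma adjusted p = 0.115). The second probe set of Ndufb5 was lower, with a change of -0.32 (limma adjusted p = 0.00745), the same sign as its brightest probe set. Ndufaf4 (-0.28, adjusted p = 0.00602) and Ndufa5 (-0.18, adjusted p = 0.0235) also had a second probe set called lower. For Ndufa5 the brightest probe set had a change of the opposite sign, 0.13. In the upward direction, another probe set of Ndufv1 rose by 0.18, of Ndufb9 by 0.20 and, at low signal, of Ndufb8 by 0.56, while their brightest were not called. Ndufa7 had 5 tested probe sets, of which 4 rose, by 0.16 to 0.39, and a dim one gave -0.26 without a call.

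**Figure D4:**
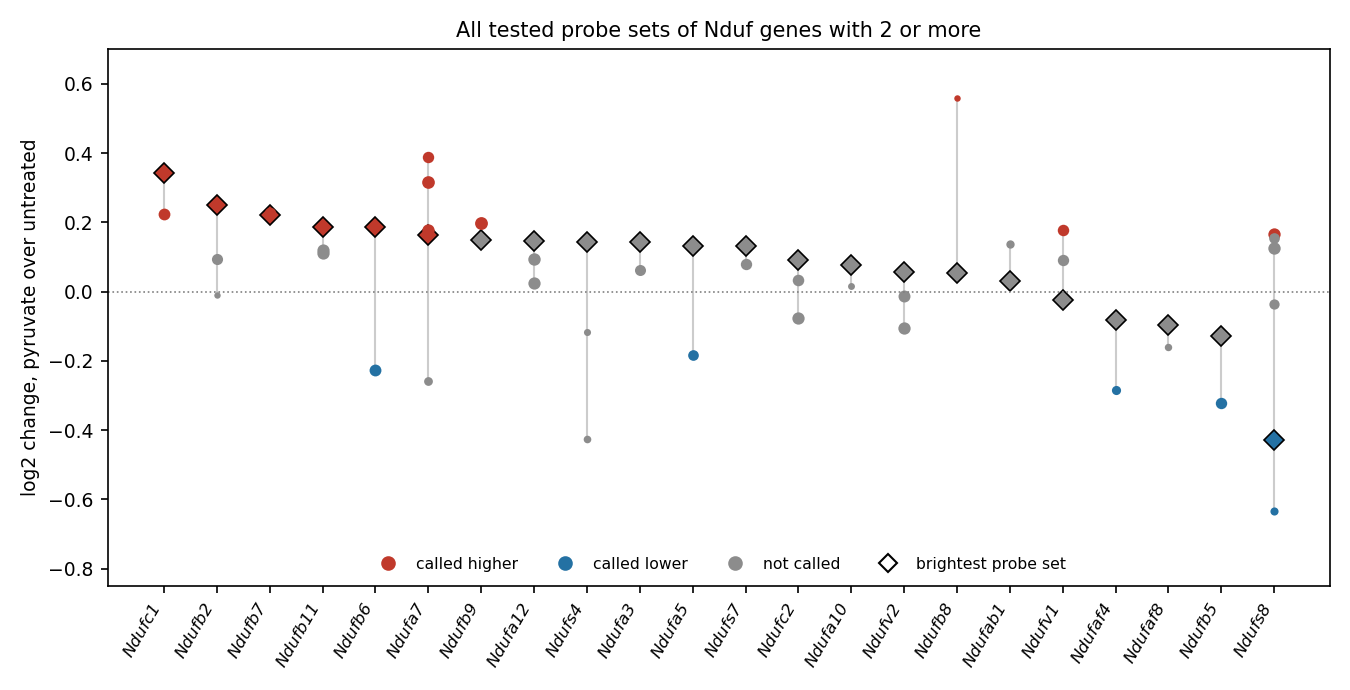
Log2 change of pyruvate over untreated (y axis) for every tested probe set of the 22 Nduf genes with at least 2, ordered by the change of the brightest (diamond), with point area growing with mean signal and colour giving the call. Ndufb6 and Ndufs8 hold calls in both directions, and Ndufc1 and Ndufb7 are higher on each of their probe sets.

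Scaling of the arrays changed which Nduf genes were called. Of the 15 called higher as deposited, 11 remained so after quantile normalization, where Ndufa4, Ndufa7, Ndufa8 and Ndufb11 were lost and Ndufs4 was gained. Under cyclic loess, 6 remained: Ndufa13, Ndufaf3, Ndufaf7, Ndufb2, Ndufc1 and Ndufs5. The share of all genes called higher was 20% after quantile normalization and 19.8% after cyclic loess, and lower 14.6% and 15.1%. Both normalizations called 2 Nduf genes lower, Ndufs8 and Ndufb5. The median change of the Nduf genes was 0.10 after quantile normalization and 0.06 after cyclic loess, and each gene called as deposited kept its sign under both. Among genes not called, Ndufv2 and Ndufb8 were below 0 under both, Ndufb9 under quantile normalization only, Ndufab1, Ndufc2 and Ndufv3 under cyclic loess only, and Ndufaf6 was above 0 under both.

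**Figure D5:**
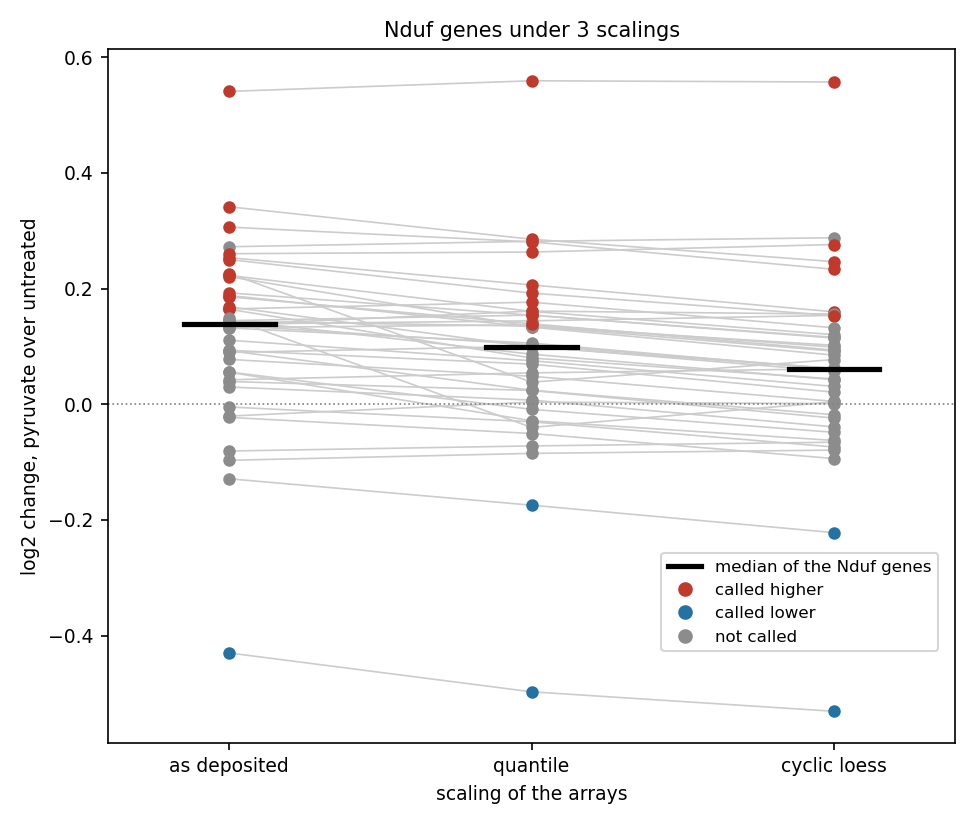
Log2 change of pyruvate over untreated (y axis) of the 42 Nduf genes under the deposited scaling, quantile and cyclic loess normalization (x axis), with lines joining a gene and black bars at the medians. The medians are 0.14, 0.10 and 0.06, while Ndufaf3 at the top stays near 0.54 to 0.56.

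Counting over the 6 leave-outs and the 12 other settings together, 4 of the 15 genes called higher were called in each: Ndufa13, Ndufaf3, Ndufc1 and Ndufs5. Over the leave-outs alone there were 8, these 4 with Ndufa1, Ndufa4, Ndufb2 and Ndufb7. Of the 4, 3 are membrane-arm accessory subunits and 1 is an assembly factor. Ndufa13, Ndufaf3 and Ndufs5 each had only 1 probe set of 1 symbol, so the mean over probe sets could not change their estimates.

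Other complex I genes were read from a list. Of 15 listed assembly factors without an Nduf symbol, 14 had a probe set and were tested, 1 was higher and 0 lower, against 20.7% and 14.5% of all genes, and the median change was 0.01. The gene was Acad9, an acyl-CoA dehydrogenase relative that works with Ndufaf1, Ecsit and Tmem126b in building the membrane arm. It had 298.7, 298.3 and 293.9 in pyruvate cells, against 233.1, 242.6 and 240.9 in untreated cells, a rise of 0.30 ± 0.06 (limma adjusted p = 0.00320). Its partners Ecsit and Tmem126b each changed by 0.15 without a call, with all pyruvate arrays above all untreated ones.

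The mitochondrially encoded subunits were represented by ND5 alone, a proton-pumping subunit at the far end of the membrane arm. It had 5201.4, 4833.5 and 5605.1 in pyruvate cells, against 4174.7, 4250.1 and 3765.5 in untreated cells, a rise of 0.36 ± 0.07 (limma adjusted p = 0.00177). The median of like-bright genes was 0.32, and after quantile normalization the change of ND5 was 0.005 (adjusted p = 0.966).

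Probe sets that carry several symbols cannot be assigned to 1 gene and were not counted as members. The brightest for Ndufa11 with Ndufa11b had mean signals of 1230.0 in pyruvate cells and 987.1 in untreated cells, a change of 0.31 (limma adjusted p = 0.000619). Of 2 probe sets shared by Ndufb4, Ndufb4b and Ndufb4c, 1 had 1491.7 in pyruvate cells and 1291.0 in untreated cells, a change of 0.21 (adjusted p = 0.0196). The other had 1473.1 in pyruvate cells and 1271.6 in untreated cells, a change of 0.20 that was not called (adjusted p = 0.0875), with overlapping groups. That of Ndufs6 with Ndufs6b had 1164.8 in pyruvate cells and 1156.8 in untreated cells, a change of 0.01 (adjusted p = 0.912). The probe set of Ndufs5 and its pseudogene had 804.1 in pyruvate cells and 737.8 in untreated cells, with separate groups. Its change of 0.12 was not called (adjusted p = 0.138) and was smaller than the 0.31 of the Ndufs5 probe set. The probe set of Ndufab1 and its pseudogene went down, with 897.1 in pyruvate cells against 1120.3 in untreated cells, a change of -0.32 (adjusted p = 0.00113).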

How the data were processed

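RNA from 6 C2C12 samples was measured on Affymetrix Mouse430_2 arrays, 1 array each. The deposited values are intensity signals on a linear scale from MAS5, per the submitters' processing notes, with version and settings not stated in the sources used here. The trimmed mean signal, without the lowest and highest 2%, was 150.0 on every array, so the authors had scaled the arrays to it, and that scaling was kept. The number of arrays limits the precision. Of 45101 probe sets, 64 controls were left out, and 34945 of the rest carried 1 gene symbol, 932 several and 9160 none in the platform annotation. All 44 Nduf genes matched a RefSeq gene table through the Entrez identifier.

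A constant of 16 was added before log2, which understates the fold of dim genes. Probe sets with a mean log2 value of at least 5.53, a signal of 30.3, were tested with limma 3.58.1 in R 4.3.3 (variance trend, two-sided, no block), with Benjamini-Hochberg adjustment over 22519 probe sets and a threshold of 0.05. A gene was read by its brightest probe set of 1 symbol. Like-bright genes lay within 0.5 log2 units. Every Nduf gene was named or counted. The step was tested on simulated data. Alternatives were pseudocounts of 1 and 64, no filter and a filter at 7, quantile, cyclic loess and median centring, no variance trend, robust variances, array weights, a replicate block, the mean over probe sets, each array left out, and windows of 0.25 and 1. Promoter windows of 300 bases came from RefSeq (GRCm38.p6). Figures were drawn with matplotlib 3.10.9. The members, roles and lists were chosen with earlier results of these data known.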

Additional observations from a re-analysis of the deposited data

How the results depend on the processing

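The count of Nduf genes higher with pyruvate, 15 as analysed, was 6 under cyclic loess, 9 without the variance trend, and between 9 and 20 when each array was left out, with 9 without untreated replicate 1 and 10 without pyruvate replicate 3 or untreated replicate 2. No filter gave 10, and the other alternatives gave 12 to 19. The count lower, 1 as analysed, was 2 under cyclic loess, quantile normalization and the stricter filter, 0 with no filter, with robust variances and without the variance trend, and 0 to 1 over the leave-outs. With the mean over probe sets it was also 1, but the gene was Ndufb5 and not Ndufs8. The leave-outs that gave 0 were those of pyruvate replicates 1 and 3 and untreated replicates 1 and 3. The cause was not tested. The number of probe sets called, 7250, was 5377 to 7500 over all settings that give it; the mean over probe sets gives no such count. Ndufb6 was reversed under the mean over its probe sets, at -0.020 (limma adjusted p = 0.781), and no other called gene changed sign under any setting. The median difference from like-bright genes stayed between 0.05 and 0.10 throughout, and at 0.08 with windows of 0.25 and 1. With the replicate number as a block, 16 Nduf genes were higher, 1 lower and 6917 probe sets were called. Deviations of same-numbered arrays correlated by -0.009, 0.014 and 0.021, and those of differently numbered arrays by -0.026 to 0.011. The labels do not say whether same-numbered arrays were paired, and correlations over all tested probe sets cannot decide it. The assembly factors, dimmer than most subunits, had a median standard error of 0.10 against 0.05 for core and accessory subunits, which limits the size of change that can be called.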

Other observations

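Several Nduf promoter windows overlap that of a gene on the other strand. There were 14 such Nduf genes, and for 9 of them the neighbour was tested. Of these 9 neighbours 1 was higher with pyruvate and 2 were lower, against 20.7% and 14.5% of all genes tested. Rps28, a ribosomal protein gene beside Ndufa7, had signals of 5746.6, 6978.2 and 6321.3 in pyruvate cells, against 5067.2, 5122.4 and 4804.3 in untreated cells, a rise of 0.34 (limma adjusted p = 0.00293), and Ndufa7 rose too, by 0.16.

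Phf14, beside Ndufa4, had 310.4, 287.2 and 255.5 in pyruvate cells, against 357.6, 371.0 and 379.5 in untreated cells, a change of -0.36 (limma adjusted p = 0.00308), while Ndufa4 rose by 0.23. Esf1, beside Ndufaf5, had 311.0, 315.6 and 288.6 in pyruvate cells, against 331.9, 384.2 and 370.6 in untreated cells, a change of -0.23 (adjusted p = 0.0238). Kbtbd4, beside Ndufs3, changed by -0.12 and Mrpl47, a mitochondrial ribosomal protein gene beside Ndufb5, by -0.12, and neither was called. No test was made of any relation between neighbours.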
